A study of Mus musculus with 2 samples.

Results

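The leptomeningeal fibroblast genes are 10 genes used as markers of the cells that form the pia and arachnoid, the thin membranes on the surface of the brain: Ptgds, Dcn, Lum, Slc6a13, Slc22a6, Foxc1, Gjb2, Slc6a20a, Aldh1a2 and Igfbp2. They were chosen by name, with earlier results of these data known. All 10 were found once each among the 55536 annotated genes of the deposited tables. The RNA sequenced was total RNA of the left cerebral cortex. It came from aged females (18 to 20 months) of B6CASTF1/J, a cross between the strains C57BL/6J and CAST/EiJ. The labels give 1 untreated group of 2 libraries, biological replicates 1 and 2, each made from 300 ng of RNA. Both biosamples point to the same donor entry, so separate animals are not assured and the spread between the libraries may be technical. No younger cortex, other tissue or treatment was analysed here, so the values are levels and not changes with age.

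Leptomeningeal fibroblasts lay down the collagen-rich matrix of the membranes and form part of the barrier between blood, cerebrospinal fluid and brain. They secrete proteins into the cerebrospinal fluid, carry transporters that clear solutes from it, and make retinoic acid, a signal to the underlying cortex. Some of their markers are shared: Ptgds is also known from oligodendrocytes, Igfbp2 from astrocytes and Dcn from perivascular cells. In tissue RNA, fewer cells of a type and less RNA per cell cannot be told apart.

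Replicate 1 held 32357983 expected read counts on genes and replicate 2 held 24798683. Levels are in TPM, which divides counts by transcript length and scales every library to the same total, so that genes can be compared with each other. Gene tables based on alignments are the source unless a value is called alignment-free, which is an estimate made without aligning reads to the genome. Where a pair of values is given without further words, replicate 1 comes first. The tissue label was checked on Slc17a7, a vesicular glutamate transporter gene expressed by excitatory neurons of the cortex, which had 558 and 547 TPM. The 2 libraries were not copies of each other, since their counts differed by a chi-square of 14.2 per degree of freedom over 18246 genes.

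Parts of the RefSeq promoter windows (GRCm38.p6) are shown for Ptgds, the member with the highest level, and Gjb2, which differed most between the libraries. Each full window holds 300 bases, 250 before the RefSeq start and 50 from it onward. The Ptgds stretch is the 157 bases directly before the annotated start of transcript Ptgds-201 (chr2:25469843-25469999, minus strand). These bases lie inside the first intron of transcript Ptgds-202 and end upstream of the RefSeq start, which is that of Ptgds-203. The Gjb2 stretch is the 250 bases before its start (chr14:57104703-57104952, minus strand). Capitals mark matches, on either strand, to 5 short motifs: the TATA box TATAAA, the CCAAT box, the GC box GGGCGG, the forkhead core GTAAACA and the E-box CANNTG.
Ptgds: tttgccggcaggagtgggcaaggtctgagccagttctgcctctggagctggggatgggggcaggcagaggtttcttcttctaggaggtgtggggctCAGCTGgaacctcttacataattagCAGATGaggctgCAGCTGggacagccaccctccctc
Gjb2: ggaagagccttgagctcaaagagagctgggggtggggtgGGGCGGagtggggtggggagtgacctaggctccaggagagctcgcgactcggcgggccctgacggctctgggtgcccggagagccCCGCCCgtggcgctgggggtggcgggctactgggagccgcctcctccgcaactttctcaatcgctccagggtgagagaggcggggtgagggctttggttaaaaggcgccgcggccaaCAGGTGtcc

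The Ptgds stretch held 3 E-box matches and none of the other motifs, and the Gjb2 stretch held 2 GC boxes and 1 E-box. The full windows of 300 bases, to which the shares below refer, held the same numbers of matches. Among all 32851 RefSeq promoter windows of 300 bases, an E-box was present in 72.3%, a CCAAT box in 37.4%, a GC box in 35.7%, a TATA box in 13.6% and a forkhead core in 3.65%. Windows were found for 8 of the 10 genes, 11 windows in all, and none of the 11 held the TATA box or the forkhead core as spelled. The content of CpG, the dinucleotide that DNA methylation acts on, ranged widely. The windows of Ptgds and Slc22a6 held 2 CpG each, against a median of 7 in all windows. Those of Slc6a13 held 11, 7 and 2, and those of Igfbp2 held 18 and 14. The window of Slc6a20a held 25, that of Gjb2 27, that of Foxc1 32 and that of Aldh1a2 50.

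Ptgds was by far the most abundant of the 10 genes and Lum the least. Ptgds, which encodes the enzyme that makes prostaglandin D2 and is secreted in quantity into cerebrospinal fluid, stood far above the others, with 1321 and 878 TPM (1099.5 ± 313 TPM, SD, n = 2). By mean TPM it ranked 3 among 22015 nuclear protein-coding genes (2 in replicate 1, 12 in replicate 2), and it made up 93.9% and 93.4% of the summed TPM of the 10 genes in replicates 1 and 2. Without it, the other 9 genes summed to 85.6 and 61.8 TPM. They ran from Igfbp2 at 28.5 ± 7.54 TPM to Lum at 0.810 ± 0.141 TPM. Of the 10 genes, 9 reached 1 TPM in both libraries, where 58.3% of nuclear protein-coding genes did. The median over the genes was 6.32 and 5.97 TPM, against 13.3 and 13.8 TPM over the 14804 genes that reached 1 TPM in both.

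Several neighbours in the order of levels did not differ beyond the spread of the libraries. The ranges of the libraries separated Ptgds from Igfbp2, Igfbp2 from Slc6a13, Slc6a20a from Dcn, and Foxc1 from Lum. The ranges of Slc6a13 and Slc6a20a overlapped, as did those of each adjacent pair among Dcn, Aldh1a2, Gjb2, Slc22a6 and Foxc1. The alignment-free tables gave all 10 genes higher values, from 1.44 times (Slc6a20a) to 1.95 times (Slc6a13) the level in the gene table, where the median gene at 1 TPM or more had 1.61 times. In those tables Lum reached 1 TPM in both libraries, at 1.43 and 1.17 TPM.

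**Figure D1:**
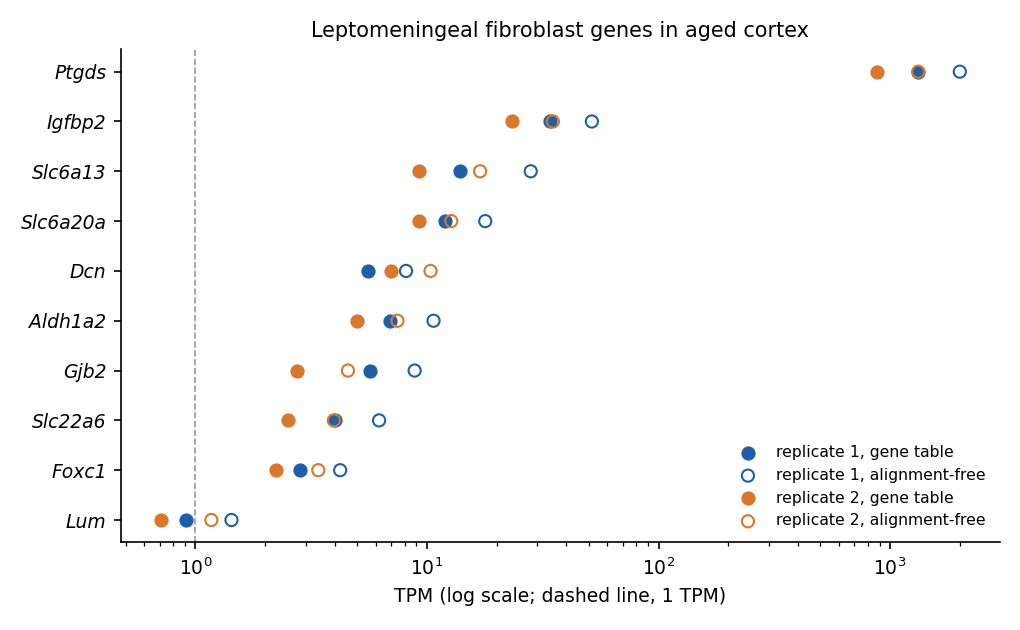
Level of each gene in TPM (log axis) in replicate 1 (blue) and replicate 2 (orange), from the gene tables (filled) and the alignment-free tables (open). Ptgds lies between 878 and 2000.0 TPM, the other genes between 0.710 TPM (Lum in replicate 2) and 51.5 TPM (Igfbp2 in replicate 1, alignment-free), and Dcn is the gene whose replicate 2 points lie to the right of those of replicate 1.

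Next to Ptgds, the other secreted protein of high level was Igfbp2. This gene (chr1:72824503-72852474, mm10), which encodes a binding protein of insulin-like growth factors, had 33.9 and 23.2 TPM. It stood at rank 3950, within the top 17.9% of nuclear protein-coding genes. Replicate 1 was the higher library, as for Ptgds.

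The matrix genes Dcn (chr10:97479609-97518143) and Lum (chr10:97565128-97572703) encode decorin and lumican, small leucine-rich proteoglycans that bind collagen fibrils. Dcn had 208 and 196 counts in replicates 1 and 2, or 5.54 and 6.98 TPM. Lum had 48 and 28 counts, or 0.910 and 0.710 TPM, with deposited lower and upper bounds of 0.653 and 1.15 TPM in replicate 1. Dcn was the only one of the 10 genes with the higher TPM in replicate 2. Lum was the least abundant of the 10, and its counts gave the least precise values.

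The 3 transporter genes are known for clearing solutes from cerebrospinal fluid. Slc6a13 (chr6:121300227-121337733) encodes GAT2, a carrier of GABA and taurine known from the leptomeninges, and had 13.8 and 9.25 TPM. Slc6a20a (chr9:123634770-123678885), which encodes a carrier of proline and other imino acids, had 12.0 and 9.22 TPM. Its counts, 628.55 and 399.61, were the only ones of the 10 genes that were not whole, so some of its reads were shared with other entries and its values are uncertain to that extent. An unclassified entry on the same strand within its locus, Gm47171, had 23 and 29 counts. Slc22a6 (chr19:8618039-8628299), which encodes the organic anion transporter OAT1, had 4.01 and 2.50 TPM. All 3 were higher in replicate 1.

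Aldh1a2 (chr9:71215789-71296243) encodes the retinaldehyde dehydrogenase that makes retinoic acid in the meninges, and had 6.94 and 4.96 TPM. Foxc1 (chr13:31806633-31812476), a forkhead transcription factor gene that the meninges need for their development, had 2.82 and 2.23 TPM. Gjb2 (chr14:57098600-57104702), which encodes the gap junction protein connexin 26, had 5.69 and 2.75 TPM. Of the 10 genes Gjb2 had the widest spread for its level, with an SD of 49.3% of the mean, against 16.3% for Dcn at the other end.

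Many of the 10 genes lie beside relatives of the same family, and the relatives ranged from no counts to levels above the member. Slc6a12, which encodes the betaine and GABA transporter and begins 5.34 kb from Slc6a13, had 0.510 and 0.410 TPM in replicates 1 and 2, and Slc6a20b, 2.20 kb from Slc6a20a, had 0.220 and 0.290 TPM. Alignment-free levels of Slc6a20b were 3.86 and 2.39 TPM, beside 17.8 and 12.7 TPM for Slc6a20a, so its level and the library with the higher value depended on the kind of table. In the proteoglycan cluster on chromosome 10, Kera had no read in either library and Epyc had 1 in each, a range of 0 to 0.0400 TPM beside Dcn and Lum. At these loci the members were thus the genes with the higher level. Gja3, a connexin gene 40.5 kb from Gjb2, had 3 and 6 counts. Other relatives were expressed at 1 TPM or more. Slc22a8, the gene of a second organic anion transporter 6.20 kb from Slc22a6, had 5.98 and 5.03 TPM, above Slc22a6 in both libraries, and Gjb6, the astrocyte connexin gene 18.6 kb from Gjb2, had 40.8 and 42.9 TPM. Igfbp5, 5.46 kb from Igfbp2 on the opposite strand, had 18.2 and 21.9 TPM, below Igfbp2 in both libraries. In the alignment-free tables this order turned in replicate 2, with 35.8 TPM for Igfbp5 and 34.97 TPM for Igfbp2. Foxf2, 175 kb from Foxc1, had 2.55 and 1.57 TPM.

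Ptgds (chr2:25466709-25470046, minus strand, mm10) was resolved into transcripts in both kinds of transcript table, which gave different answers. GENCODE M21 annotates 5 transcripts. Ptgds-201, Ptgds-202 and Ptgds-203 hold the same 567 coding bases and share 760 bases in all, and they differ in where they start and, for Ptgds-203, by 33 bases that it lacks. Ptgds-202 starts 204 bases upstream of Ptgds-201, with a first exon of 37 bases that no other transcript has, and Ptgds-201 starts 93 bases upstream of Ptgds-203. Ptgds-204 and Ptgds-205 start further downstream and are annotated as a processed transcript and a retained intron, with no coding segment. The RefSeq start of the gene coincides with the start of Ptgds-203.

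**Figure D2:**
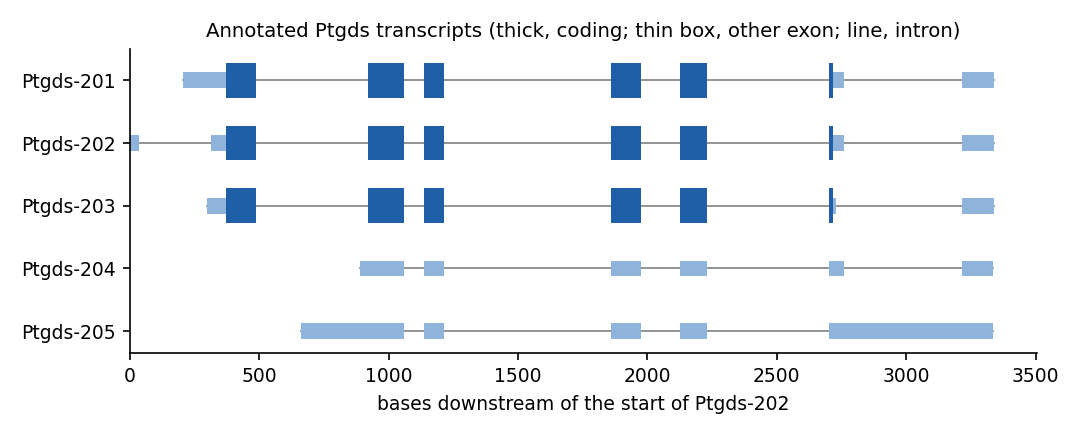
The 5 annotated Ptgds transcripts, drawn by distance in bases from the start of Ptgds-202, with coding segments thick, other exon parts thin and introns as lines. Ptgds-201, Ptgds-202 and Ptgds-203 have the same coding segments and differ at the left end, where Ptgds-202 has a separate first exon of 37 bases and Ptgds-201 has 93 bases more than Ptgds-203.

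In the alignment-based tables Ptgds-202 led, with 634 and 432 TPM, or 48.0% and 49.2% of the TPM of the gene. Ptgds-201 had 0 and 2.80 TPM there. In the alignment-free tables the places were exchanged: Ptgds-201 had 1340.35 and 923 TPM, or 67.0% and 69.8%, and Ptgds-202 had 0 in both. The difference between the kinds of table exceeded that between the libraries, for which the SD of the shares was at most 1.95 percentage points for these transcripts. Both libraries gave the same answer within each kind of table, so the libraries do not settle which of the starts was in use.

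Ptgds-203 held a similar share everywhere, 25.8% ± 0.937 in the alignment-based and 24.9% ± 1.33 in the alignment-free tables (SD, n = 2). The noncoding Ptgds-204 held 23.2% ± 1.28 in the former and 4.17% ± 1.83 in the latter. Together the 3 coding transcripts held 74.5% and 74.7% of TPM in replicates 1 and 2 by alignment, and 92.9% and 93.7% without it. The retained-intron transcript Ptgds-205 had the higher TPM in replicate 2, unlike the gene as a whole, at 18.3 and 26.3 TPM by alignment and 33.5 and 44.8 TPM without it. Its share was accordingly higher in replicate 2, at 3.0% against 1.39% by alignment and 3.39% against 1.67% without it.

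**Figure D3:**
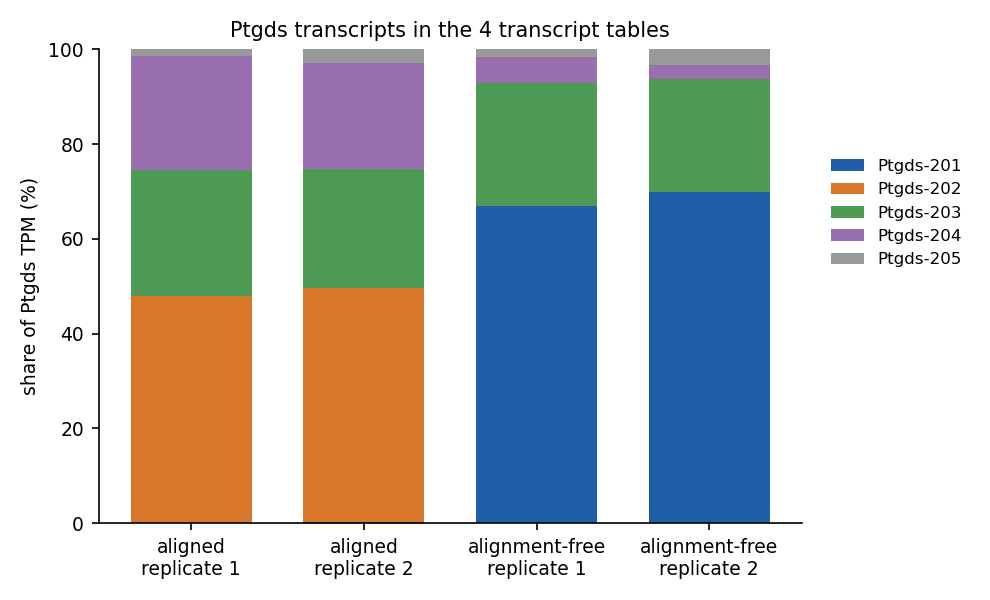
Share of the Ptgds TPM (%) held by each annotated transcript, stacked, in the alignment-based and alignment-free tables of both libraries. Ptgds-202 (orange) fills 48.0% and 49.2% of the bars on the left and is missing on the right, where Ptgds-201 (blue) fills 67.0% and 69.8%, while Ptgds-203 (green) is near 25% in each bar.

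Of the other 9 genes, 5 have a single annotated transcript. For Slc6a13, Slc6a20a and Igfbp2 the same transcript led in all 4 tables. That of Slc6a13, of 2234 bases in 15 exons, held 81.2% ± 3.85 of the TPM by alignment and 60.2% ± 2.25 without it, where a shorter coding transcript of 681 bases held 28.1% ± 4.16. Dcn has a pair of coding transcripts of equal length, 1758 bases, with different starts. Dcn-201 held 95.3% ± 6.31 by alignment, while the alignment-free tables gave Dcn-201 and Dcn-202 equal shares of 49.5% each.

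The difference between the libraries was described by the log2 ratio of replicate 2 to replicate 1, computed from counts scaled with edgeR's TMM method. There is 1 library on each side, so a ratio describes these libraries, without a test. Intervals are 95% exact Clopper-Pearson limits on how each gene's reads divide between the libraries, and they cover counting error only. Over the 18246 genes that averaged at least 10 counts, the median ratio was 0.00. The median over the 10 leptomeningeal genes was -0.56, and 9 of the 10 had a ratio below 0, where 50.0% of all genes did.

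Gjb2 stood furthest from 0, with 296 counts in replicate 1 and 107 in replicate 2, a log2 ratio of -1.08 (-1.42 to -0.77), or 2.11 times more in replicate 1. It was the only one of the 10 that was 2-fold or more lower in replicate 2, where 1.01% of all genes were, and none was 2-fold or more higher, where 4.46% of all genes were. With the added spike-in RNAs as the scale the ratio of Gjb2 was -0.92, short of 2-fold.

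The next genes were close to each other. Slc22a6 had 351 and 164 counts, a log2 ratio of -0.71 (-1.0 to -0.45), Slc6a13 had 586 and 280 counts, a ratio of -0.68 (-0.90 to -0.48), and Ptgds had 20217 and 10232 counts, a ratio of -0.60 (-0.64 to -0.57). Ptgds, with the most reads, had the narrowest interval. Its ratio was -0.44 on the spike-in scale and -0.66 with alignment-free counts, both outside that interval. Igfbp2 followed with 903 and 460 counts at -0.59 (-0.76 to -0.43), and Aldh1a2 with 339 and 181 counts at -0.52 (-0.79 to -0.26). For these 5 genes the counts of replicate 2 were 1.44 to 1.64 times below those of replicate 1 after scaling.

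Foxc1, with 365 and 216 counts, had a log2 ratio of -0.37 (-0.63 to -0.13), and Slc6a20a one of -0.27 (-0.46 to -0.09). The ratio of Lum, -0.38 (-1.13 to 0.30), could not be told from 0 at its depth. Dcn, at 0.29 (0.005 to 0.58), was the only one of the 10 above 0. The counting interval lay wholly below 0 for 8 of the 10 genes, where it did so for 18.4% of all genes. The same 9 genes were lower in replicate 2 by deposited TPM and by alignment-free TPM.

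**Figure D4:**
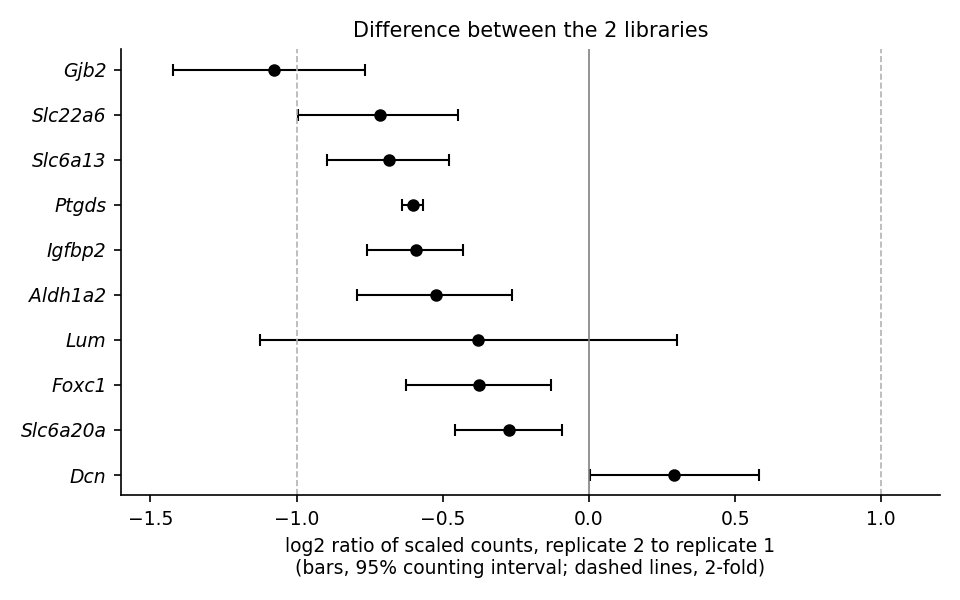
Log2 ratio of scaled counts of replicate 2 to replicate 1 for each gene (point) with its 95% counting interval (bar); dashed lines mark 2-fold. The ratios of 9 genes lie left of 0, with Gjb2 at -1.08, the interval of Lum crosses 0, and Dcn lies on the right at 0.29.

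Ratios of general fibroblast genes lay on both sides of 0. Of the 13 collagen, laminin, growth factor receptor and other matrix genes listed, 6 were lower and 7 higher in replicate 2, with a median log2 ratio of 0.07 (range -0.55 to 0.33), and their summed TPM was 98.1 in replicate 1 and 102 in replicate 2. None was past 2-fold. Col1a1 and Col1a2, the chains of collagen I, had ratios of -0.01 and -0.13, Col6a1 (20.8 and 24.6 TPM) had 0.18, and Pdgfra, the platelet-derived growth factor receptor gene of fibroblasts and oligodendrocyte precursors (12.8 and 13.8 TPM), had 0.09. The counting interval lay wholly below 0 for Serpinf1 (-0.55), Fbln1 (-0.38) and Pdgfrb (-0.28), the direction of 8 of the 10 leptomeningeal genes, and wholly above 0 for 3 others. Whether the ratios of the list differ from those of the 10 genes was not tested, since each side has 1 library.

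Transcription factor genes known from the meninges were mostly lower in replicate 2. Of the 17 besides Foxc1, 9 reached 1 TPM in both libraries and 15 had enough counts for a ratio, of which 13 were lower and 2 higher in replicate 2, none past 2-fold, with a median of -0.37. The counting interval lay wholly below 0 for 5 of the 15 and wholly above 0 for none, so most crossed 0. Zic1 had 6.10 and 4.99 TPM and a log2 ratio of -0.48, Zic2 had 8.10 and 6.42 TPM, a ratio of -0.40, and Foxf2 had the lowest ratio, -0.72. Foxp1 (56.9 and 58.7 TPM) and Nr2f2 (15.1 and 15.0 TPM) had ratios of 0.01 and -0.12. Osr1, Tbx18 and Tbx15 had ratios of -0.027, 0.036 and -0.085. Cortical neurons and vessels express Foxp1 and Nr2f2 too, and whether this bears on their ratios was not tested. Tcf21 had 0 counts in both gene tables and alignment-free levels of 0.0524 and 0.101 TPM.

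Genes that act beside each member were counted by pathway. Of the 13 small leucine-rich proteoglycan genes besides Dcn and Lum, 6 reached 1 TPM in both libraries, and of 10 with a ratio 7 were lower and 3 higher in replicate 2, with a median of -0.20. Fmod, the fibromodulin gene, was more abundant than Dcn and Lum in both libraries, at 12.1 and 7.71 TPM (log2 ratio -0.67), and Ogn, the osteoglycin gene, had 4.22 and 2.62 TPM (-0.72). Bgn, the biglycan gene, had 7.43 and 5.63 TPM (-0.46), Prelp 5.16 and 4.49 TPM, and Podn 3.98 and 4.95 TPM (0.62). In this family the ratios thus ran from -0.72 to 0.62.

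The insulin-like growth factor system held 11 genes besides Igfbp2. Of these, 9 reached 1 TPM in both libraries, and of 9 with a ratio 4 were lower and 5 higher in replicate 2, with a median of 0.06. Igf2, a growth factor gene that the leptomeninges and choroid plexus are known to express in adult brain, had 48.5 and 32.8 TPM and a log2 ratio of -0.75. Igfbp4 (27.4 and 27.9 TPM), Igfbp6 (26.3 and 25.1 TPM) and Igf1r, the receptor gene (19.1 and 26.4 TPM), were the next most abundant. Igfbp1 had no read in either library.

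In the prostaglandin pathway, 9 of 20 genes besides Ptgds reached 1 TPM in both libraries, and of 17 with a ratio 13 were lower and 4 higher in replicate 2, with a median of -0.17. Ptgs1 and Ptgs2, the cyclooxygenase genes that supply the substrate of Ptgds, had 9.55 and 9.64 TPM, and 7.48 and 10.9 TPM. The synthase genes Ptges3 (58.3 and 52.3 TPM) and Ptges2 (21.2 and 20.2 TPM) and the reductase gene Cbr1 (29.0 and 29.4 TPM) were the most abundant others. Hpgds, the other prostaglandin D2 synthase gene, had 1.94 and 1.38 TPM, and alignment-free levels of 2.33 and 2.57 TPM. The receptor genes for prostaglandin D2 were low. Ptgdr had 0.470 and 0.230 TPM on 32.81 and 12 counts, a log2 ratio of -0.98 (-2.17 to -0.09), and Ptgdr2 had 6 and 1 counts.

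Retinoic acid genes besides Aldh1a2 were divided evenly. Of 18, 14 reached 1 TPM in both libraries, and of 16 with a ratio 8 were lower and 8 higher in replicate 2, with a median of -0.03. Aldh1a1, another retinaldehyde dehydrogenase gene, was more abundant than Aldh1a2, at 23.3 and 19.9 TPM, and Aldh1a3 had 0.440 and 0.760 TPM. The receptor genes Rxrb (35.9 and 36.5 TPM), Rxra (10.7 and 11.2 TPM), Rara (6.37 and 9.06 TPM) and Rarb (7.14 and 6.86 TPM) were all present, and so was the reductase gene Dhrs3 (13.8 and 11.5 TPM). Stra6, which encodes a receptor for the retinol carrier, had 4.41 and 2.80 TPM. By alignment-free TPM the library with the higher value changed for Stra6, at 8.11 and 9.21 TPM, and for Rara, at 16.8 and 15.0 TPM.

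Related transporter and connexin genes were counted in the same way. Among the 9 related SLC6 genes besides Slc6a13 and Slc6a20a, the astrocyte GABA transporter gene Slc6a11 stood at 30.4 and 30.7 TPM, with a log2 ratio of -0.04, and none was past 2-fold. Of the 10 organic anion and related transporter genes besides Slc22a6, 5 reached 1 TPM in both libraries, led by Slco1c1 (19.6 and 18.3 TPM) and Slco1a4 (13.0 and 13.6 TPM) of the blood-brain barrier. Slc22a2 was past 2-fold, on 32.84 and 9 counts. Of the 17 connexin genes besides Gjb2, 8 reached 1 TPM in both, led by the astrocyte gene Gja1 (62.8 and 71.7 TPM). Gjb1, a connexin gene of oligodendrocytes, was the other connexin past 2-fold, with 3.79 and 1.90 TPM and a ratio of -1.03. Gja10 had no read in either library.

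Oligodendrocyte and astrocyte markers were set beside the 10 genes by level and ratio. The 12 oligodendrocyte genes, of a cell type known to express Ptgds, all reached 1 TPM in both libraries and summed to 669 and 572 TPM; 11 of 12 were lower in replicate 2, with a median log2 ratio of -0.33 and a range of -0.57 (Ermn) to 0.29 (Mal). For 9 of the 12 oligodendrocyte genes the counting interval lay wholly below 0, and for 1 wholly above 0. The ratio of Ptgds was -0.60, and that of Gjb1, the oligodendrocyte connexin gene that is not in this list, was -1.03. The 10 astrocyte genes, of a cell type known to express Igfbp2, all reached 1 TPM in both and summed to 1425 and 1376 TPM, with 6 of 10 lower and a median of -0.06. Gfap, the astrocyte filament gene, was the lowest of them at -0.90.

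Vessel and choroid plexus genes were counted in the same way. Of 10 mural genes 9 reached 1 TPM in both libraries, with sums of 81.4 and 70.8 TPM, 6 of 10 lower and a median of -0.13. Kcnj8, a potassium channel gene of pericytes, was past 2-fold, with 59 and 20 counts and a ratio of -1.12 (-1.99 to -0.43). Of 10 endothelial genes all reached 1 TPM, with sums of 140.33 and 163 TPM, 7 of 10 lower and a median of -0.20. Their ratios ran from -0.84 (Kdr) to 0.81 (Slc2a1, at 32.1 and 57.9 TPM). The counting interval lay wholly below 0 for 6 of the 10 and wholly above 0 for 2. Of 8 choroid plexus genes 2 reached 1 TPM in both, with sums of 9.79 and 5.53 TPM. These were Ttr, at 6.69 and 2.84 TPM with a ratio of -1.25, and Kl, at 1.16 TPM in each library. Kl had 132 and 100 counts, Prlr 70 and 38, Clic6 35 and 23, and Sostdc1 22 and 18. Folr1, Kcne2 and Otx2 had at most 2 reads in a library. Of 7 ependymal genes 3 reached 1 TPM in both, with sums of 15.5 and 14.2 TPM. The part of these cell types in the ratios of the 10 genes was not tested.

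**Figure D5:**
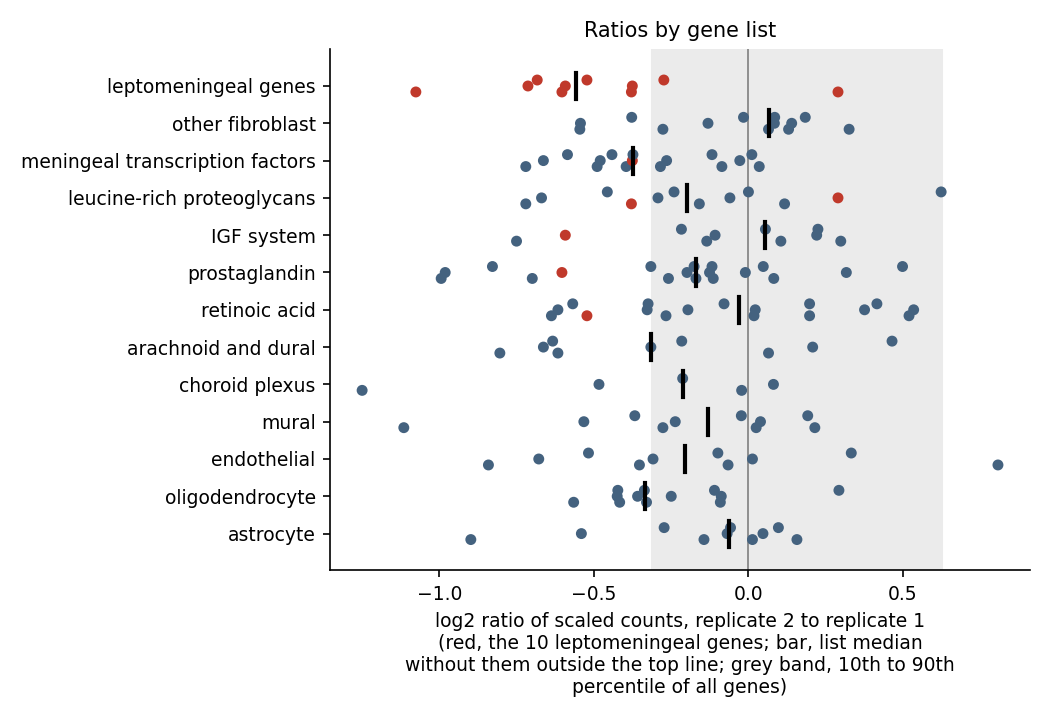
Log2 ratios of scaled counts of replicate 2 to replicate 1 for genes that averaged at least 10 counts, by gene list (points; red, the 10 leptomeningeal genes, also where another list holds one; black bar, median of the list, without red points outside the top line), with the 10th to 90th percentile of all genes, -0.31 to 0.63, in grey. The median of the leptomeningeal genes is -0.56, that of the general fibroblast genes 0.07 and that of the oligodendrocyte genes -0.33.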

How the data were processed

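For each of the 2 libraries, values of genes and of transcripts were read, on mm10 and GENCODE M21 per the text deposited with the files. Per the file headers, the authors' alignment-based tables hold expected counts, which are not normalized, TPM, bounds on TPM (kept as a score) and the percent of a gene held by each transcript. In the alignment-free tables the deposited values are estimated counts and TPM. The aligner is not given in the sources used here, nor is the quantifier. The percent values were recomputed from TPM. Alignment-free values were summed to genes. The 97 spike-ins and 26248 short-RNA entries were left out of library sizes; spike-ins held 0.452% and 0.406% of counts. A count of 0 allows up to 3 counts, 0.0927 and 0.121 CPM in replicates 1 and 2.

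Expected counts were rounded, genes averaging at least 10 counts were kept, and log2 ratios came from edgeR 4.0.16 (TMM, prior count 2); DESeq2 1.42.0 size factors were an alternative. The step was tested on simulated data. With 1 group no test between groups was made. The members and the 17 gene lists were chosen with earlier results of these data known. Named are all members, all Ptgds transcripts, from each list up to 4 of its most abundant other genes and those without reads, and receptors or enzymes that use a member's product; neighbours and further list genes named for their ratio or role were chosen after their values were seen. Family neighbours are list genes within 1 Mb. Likeness of patterns was not computed from 2 libraries. RefSeq promoter windows were matched by symbol. Some list genes that the rule would name are not reported here.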

Additional observations from a re-analysis of the deposited data

How the results depend on the processing

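All 10 log2 ratios kept their sign under the 7 alternatives tried for them, and 9 of 10 were below 0 in each. Their median ranged from -0.64 (alignment-free counts) to -0.40 (spike-in scale). The spike-in scale raised the median of all genes by 0.16, and relative to it the median of the 10 genes was -0.56; under it the number past 2-fold was 0 and Gjb2 stood at -0.92. Levels depended on the table: the median TPM, 6.14, was 9.33 in the alignment-free tables and 13.9 with TPM taken over nuclear protein-coding genes alone, and ranged from 5.97 to 6.32 with 1 library left out. The number at 1 TPM or more stayed at 9 or 10 with 0.5 or 2 TPM as the threshold, with alignment-free values and with either library left out. Ptgds-201 and Ptgds-202 held 0.159% and 48.6% of the gene by alignment, and 68.4% and 0% in the alignment-free tables; the cause was not tested. Leaving out a library gives no ratio, so none was computed. No paired analysis was possible because the labels give 1 group. Depth limits Lum most, at 48 and 28 counts.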

Other observations

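Genes known from the outer meningeal layers, the arachnoid barrier and the dura, were also measured. Of 9 such genes 5 reached 1 TPM in both libraries, and 6 were lower and 3 higher in replicate 2, none past 2-fold, with a median log2 ratio of -0.32. Mgp, which encodes an inhibitor of calcification, had 21.9 and 12.8 TPM in replicates 1 and 2, a ratio of -0.80. Crabp2, a retinoic acid binding protein gene, had 3.39 and 2.21 TPM, and Cdh1, the E-cadherin gene of the arachnoid barrier, had 0.950 and 0.70 TPM. Fxyd5 (15.7 and 19.3 TPM, ratio 0.47) and Ly6a (11.3 and 13.8 TPM, ratio 0.21) were higher in replicate 2. The counting interval of Ly6a, -0.103 to 0.525, crossed 0. Vessels express both genes too, and whether this bears on their ratios was not tested.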
